A study of Mus musculus with 6 samples.

Results

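HECT ubiquitin ligases and E2 conjugating enzymes were followed in RNA sequencing of mouse bone marrow-derived macrophages, cells matured in culture from marrow precursors, with and without Ube3a. The group was chosen by gene name as 22 HECT-family ligases, Ube3a included, and 26 E2 enzymes. All 48 genes were found among the 16836 genes of the deposited table. The 3 knockout libraries (KO) came from Ube3a-/- mice and the 3 wild-type libraries (WT) from their littermates. The labels describe neither the knockout allele, the age of the mice nor a stimulus. They do not state that the libraries are from different animals. The p-values below therefore speak only of the spread among these 6 libraries, which may be partly technical. Xist reads, given below, differed strongly within each genotype, so its libraries are not all repeats of the same sample.

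Ubiquitin is activated by an E1 enzyme, passed to an E2 enzyme and then attached to a substrate with the help of an E3 ligase. HECT ligases are the E3 class that takes ubiquitin onto its own active-site cysteine before handing it on, and UBE3A (E6-AP) is the founding member of the class. UBE2L3 (UbcH7) is an E2 that works with HECT and RBR ligases and not with ordinary RING ligases, and it is the E2 classically studied with UBE3A. In macrophages, ligases and E2 enzymes of these families act in innate immune signalling, antigen handling and the turnover of membrane receptors. The comparison of KO with WT asks how far the other ligases and the E2 enzymes differ in macrophages that lack normal Ube3a.

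Libraries held 25454862 to 35517269 reads in the table, so that 1 read was worth 0.0277 to 0.0400 CPM (reads scaled by the authors' library sizes). Macrophage identity was plain in every library. All 10 macrophage markers looked for were present, with summed levels of 14031 to 16649 CPM in KO and 15214 to 16015 CPM in WT. Lyz2 alone had 8859 to 11216 CPM over the 6 libraries, so the sum says little of the other markers. B cell and T cell markers (1 of 4 in the table for each) summed to under 1 CPM in each library. Neutrophil markers (8 of 10 in the table) summed to 8.16 to 21.3 CPM in KO and 10.2 to 32.5 CPM in WT, and stem and progenitor markers (4 of 4) to 30.2 to 40.8 CPM in KO and 34.1 to 83.8 CPM in WT. Xist, the RNA of the inactive X chromosome, had 28 reads in KO replicate 2 and 14 reads in WT replicate 2, against 30161 and 35256 reads in the other KO libraries and 41519 and 42232 reads in the other WT libraries. In Xist, replicate 2 of each genotype therefore stood apart from the rest.

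Ube3a (ENSMUSG00000025326, chromosome 7, 59228750 to 59311536, plus strand, GENCODE M21 on GRCm38) was the targeted gene, and it fell. It had 69.7, 61.2 and 77.0 CPM in KO replicates 1 to 3, against 207.1, 193.7 and 177.6 CPM in WT replicates 1 to 3. Every KO library lay far below every WT library, and the KO level was 35.9% of the WT level. On the log2(CPM + 1) scale the fold change was −1.47 (95% interval −1.69 to −1.24; limma with Benjamini-Hochberg adjustment over 12118 genes, adjusted p = 0.00444), and exact permutation of the genotype labels over the 6 CPM values gave a two-sided p = 0.1, the least that 3 libraries against 3 can reach. Within the libraries with Xist the log2 fold change was −1.38, and in the pair nearly without it the levels were 61.2 CPM in KO and 193.7 CPM in WT. Counts per gene cannot tell which exons of Ube3a the reads in KO came from. Ube3a shares 1796 exon bases with 9330162G02Rik on the opposite strand, which had 7, 7 and 3 reads in KO and 10, 19 and 10 reads in WT.

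Ube3a made up a small part of the HECT ligase transcripts in either genotype. Its share of all reads on the 22 ligases was 2.91%, 2.60% and 3.11% in the KO libraries and 8.001%, 7.55% and 7.10% in the WT libraries, in replicate order. The mean share was 2.87% ± 0.256 in KO and 7.55% ± 0.450 in WT (SD, n = 3 each). Since a long transcript collects more reads, the share was also taken per kb of merged exon, where it was 1.49% ± 0.138 in KO and 4.07% ± 0.303 in WT. Every KO library was below every WT library on both scales.

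The other 21 HECT ligases together had overlapping summed levels in the genotypes. They summed to 2324, 2289 and 2399 CPM in KO and 2381, 2371 and 2324 CPM in WT, which overlapped. Their means were 2337 ± 56.2 CPM in KO and 2359 ± 30.6 CPM in WT. The difference of −21.3 CPM compares with one of −123.5 CPM for Ube3a alone. With Ube3a included the sum was 2407 ± 63.9 CPM in KO and 2551 ± 44.9 CPM in WT, and here the libraries did not overlap (2350 to 2476 CPM in KO, 2501 to 2588 CPM in WT). The 26 E2 enzymes summed to 1871, 1664 and 1827 CPM in KO, and to 1797, 1897 and 1777 CPM in WT, with KO replicate 2 lowest of all. These sums are a description and were not tested. In bulk RNA, fewer cells that express a gene and less RNA per cell cannot be told apart.

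**Figure D1:**
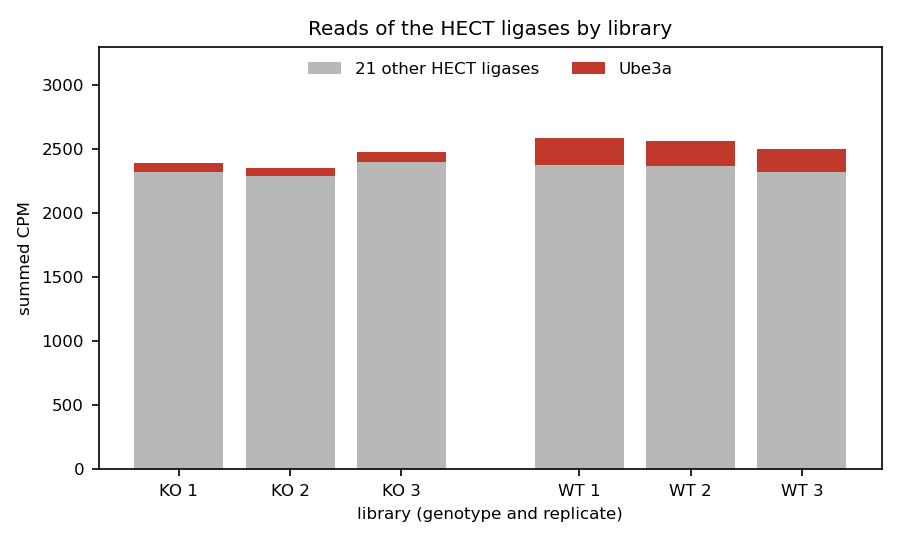
Summed CPM of the 22 HECT ligases in each library, with KO libraries on the left and WT libraries on the right; the grey bar is the sum of 21 ligases and the red bar on top of it is Ube3a. The grey bars lie between 2289 and 2399 CPM in KO and between 2324 and 2381 CPM in WT, while the red part is 61.2 to 77.0 CPM in KO and 177.6 to 207.1 CPM in WT.

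The test took in genes with 1 CPM or more in 3 or more libraries, which kept 46 of the 48, and Ube3a was the one that changed. At a limma adjusted p under 0.05, 0.0165% of all 12118 genes tested were called, 0.00825% higher in KO and 0.00825% lower in KO. None of the other 45 ligases and E2 enzymes was called by limma, nor by limma-voom on the recovered reads, and the smallest limma adjusted p among them was 0.866. An unadjusted limma p under 0.05 was reached by Hectd2 alone among the 45, where it was lower in KO; 4.13% of all genes tested reached it, 1.68% higher in KO and 2.44% lower in KO. The 20 other HECT ligases tested split into 8 positive and 12 negative log2 fold changes (median −0.02), and the 25 E2 enzymes into 11 positive and 14 negative (median −0.03). Of all genes tested, 50.4% were positive and 49.6% negative, and their median was 0.0015.

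The 6 libraries bounded most of these genes closely. For 43 of the 45 the upper end of the 95% interval lay under a 1.5-fold rise, as it did for 94.2% of all genes tested, and the exceptions were Herc6 and Ube2l6. For 41 of the 45 the whole interval lay within 1.5-fold of no change, against 90.4% of all genes tested, and Hectd2 and Ube2d3 were the further exceptions on the lower side. These bounds are on the log2(CPM + 1) scale, which understates the change of genes near 1 CPM. The median SD between libraries of one genotype, as a percent of the mean, was 6.55% in KO and 5.42% in WT over the 46 genes, and 8.28% in KO and 7.72% in WT over all genes tested.

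**Figure D2:**
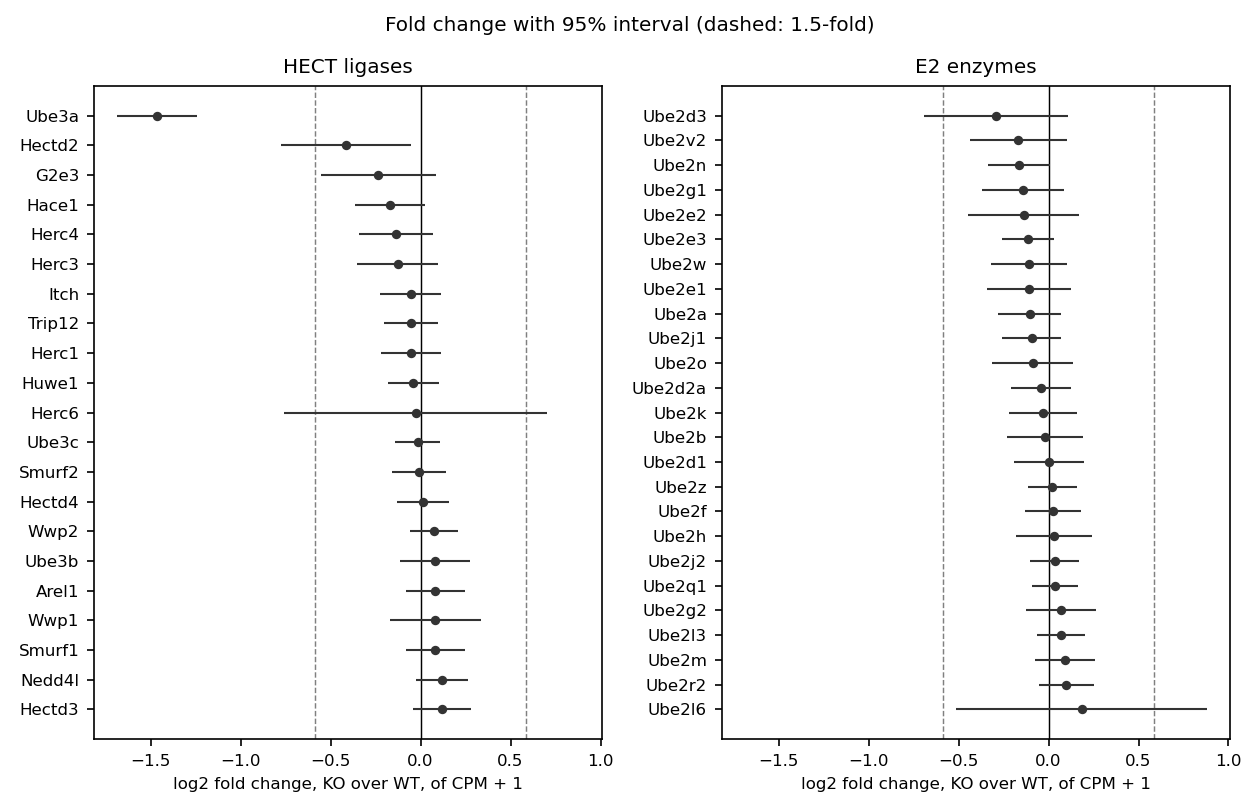
Log2 fold change of KO over WT, on log2(CPM + 1), with its 95% limma interval for the 21 HECT ligases (left) and 25 E2 enzymes (right) that were tested; the solid line marks no change and the dashed lines a 1.5-fold change. Ube3a stands alone at −1.47, and the intervals of Herc6 and Ube2l6 are far wider than those of the other genes.

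Transcript levels per kb of merged exon spread widely within each class. In WT the most abundant HECT ligase on this scale was Wwp1, a NEDD4-family ligase of membrane and signalling proteins, at 40.0 CPM per kb in KO and 38.0 CPM per kb in WT. Trip12, a nuclear ligase of the ubiquitin fusion degradation pathway, followed with 27.0 CPM per kb in KO and 28.0 in WT. Ube3b, a relative of Ube3a whose loss causes a human developmental syndrome, stood at 21.9 CPM per kb in KO and 20.8 in WT, and Huwe1, a giant ligase of MCL1, p53 and MYC, at 18.5 in KO and 19.0 in WT. Wwp1 and Trip12 did not overlap in WT, nor did Trip12 and Ube3b, but Ube3b and Huwe1 did. Over the 21 neighbouring pairs in this order of the ligases, 9 overlapped in their WT values. Per kb of the longest transcript, Trip12 was in the 1st place in WT and Wwp1 in the 2nd.

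Ube3a stood in the 9th place of the 22 ligases in WT, at 9.35 ± 0.715 CPM per kb, and in the 17th place in KO, at 3.36 ± 0.385 CPM per kb. In WT its next lower neighbour was G2e3, at 9.05 ± 1.26 CPM per kb, whose values overlapped with it, and its next higher neighbour was Arel1, at 11.7 ± 0.314, whose values did not. In KO it lay between Herc3, at 4.50 CPM per kb, and Nedd4l, at 2.88 CPM per kb. Per kb of the longest transcript instead of merged exon, Ube3a was in the 7th place in WT, and by CPM in the 4th place, so its rank depends on the length used. At the low end, Nedd4, the name-giver of its family, had 6, 19 and 16 reads in KO and 2, 12 and 19 reads in WT, and was not tested.

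Among the E2 enzymes the highest levels per kb belonged to Ube2m, which passes NEDD8 to cullins, at 51.4 CPM per kb in KO and 48.1 in WT. Ube2j1, an endoplasmic reticulum E2 of protein quality control, followed at 43.6 in KO and 46.5 in WT, then Ube2b, a RAD6 homologue of DNA damage tolerance, at 39.4 in KO and 40.1 in WT, and Ube2z, an E2 loaded by the alternative E1 UBA6, at 37.6 in KO and 37.05 in WT. The WT values of each of these overlapped with those of the next. Ube2l3 came in the 6th place, at 30.1 CPM per kb in KO and 28.6 in WT. By CPM, and also per kb of the longest transcript, Ube2l3 was in the 2nd place in WT. Ube2d3 was in the 16th place per kb of merged exon in WT but in the 1st place by CPM, so these ranks too depend on the length used. The lowest was Ube2v1, a partner of UBE2N without an active cysteine, with 8, 9 and 17 reads in KO and 17, 19 and 11 reads in WT, so that it was not tested. Ube2v1 shares 1673 exon bases with the overlapping protein-coding gene Gm20431 on the same strand, and the treatment of reads in shared exons is not stated in the sources used here.

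**Figure D3:**
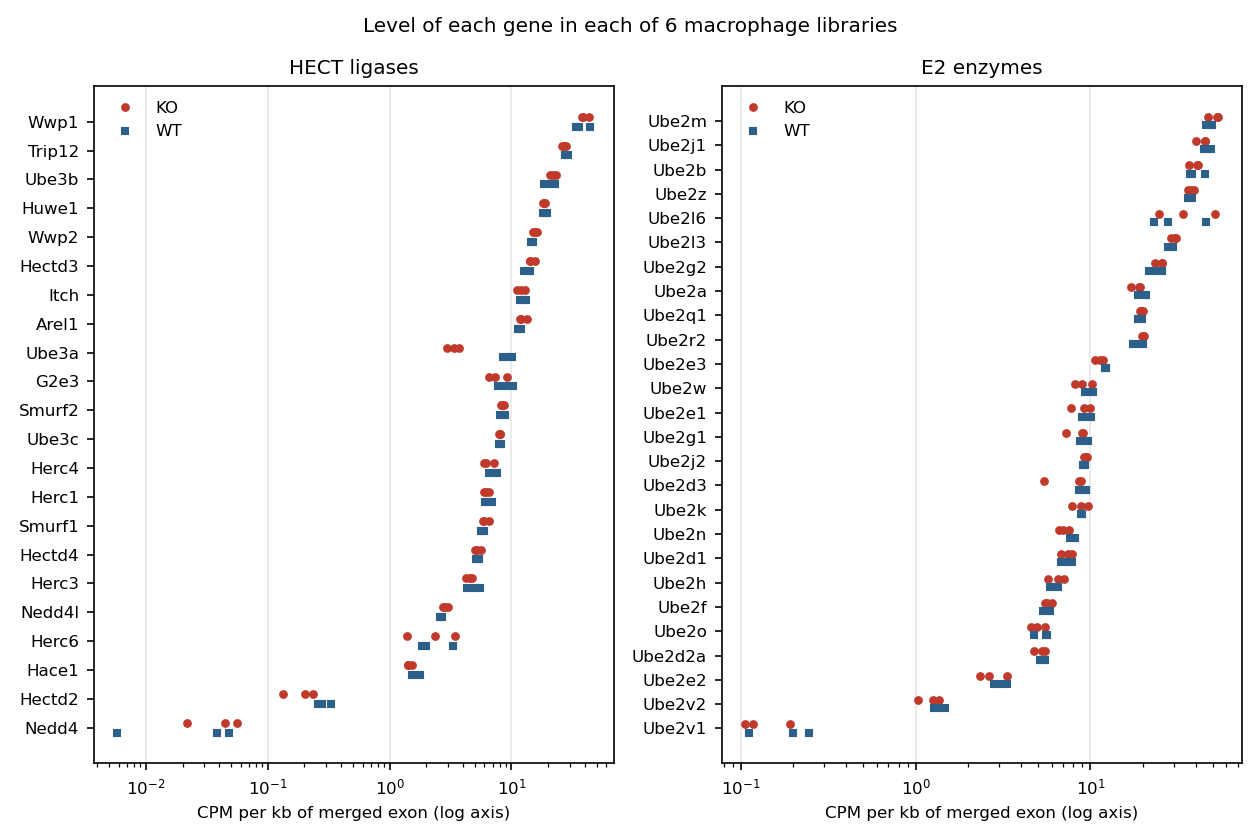
CPM per kb of merged exon, on a log axis, of each of the 22 HECT ligases (left) and 26 E2 enzymes (right) in each library, ordered by the WT mean; red circles are the 3 KO libraries and blue squares, drawn below them, the 3 WT libraries. Ube3a is the gene whose KO points, near 3.36, stand clear to the left of its WT points, near 9.35, and the points of Ube2l6 and Herc6 are spread out within each genotype.

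Ube3b and Ube3c share the name of Ube3a. Ube3b had 116.0, 122.1 and 109.7 CPM in KO replicates 1 to 3 and 98.4, 119.9 and 111.4 CPM in WT replicates 1 to 3, a log2 fold change of 0.08 (95% interval −0.11 to 0.27; limma adjusted p = 0.885). Its genotypes overlapped. Ube3c, a proteasome-bound ligase that lengthens ubiquitin chains, averaged 76.5 ± 0.441 CPM in KO and 77.5 ± 1.74 CPM in WT (SD, n = 3 each), which overlapped.

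NEDD4-family ligases, which recognise PY motifs of membrane and signalling proteins through WW domains, had 4 positive and 2 negative log2 fold changes among 6 tested (median 0.08). Nedd4l, a ligase of ion channels, had 53.2, 48.7 and 50.5 CPM in KO and 47.8, 46.0 and 46.4 CPM in WT. All KO libraries lay above all WT libraries, the only such case among the 46 genes, while 4.41% of all genes tested showed that pattern and 9.95% did not overlap in either direction. Its log2 fold change was 0.12 (95% interval −0.03 to 0.26), which did not pass (limma adjusted p = 0.866). Wwp2, a close relative of Wwp1, averaged 138.5 ± 5.15 CPM in KO and 131.3 ± 3.44 CPM in WT, a log2 fold change of 0.08 ± 0.058 (SE). Wwp1 had 245.2, 249.6 and 279.3 CPM in KO and 217.7, 287.3 and 230.4 CPM in WT, with its highest value in WT replicate 2 (log2 fold change 0.08 ± 0.109, SE). Itch, a ligase of JUNB that restrains inflammation in mice, averaged 116.6 CPM in KO and 121.1 CPM in WT. Smurf1 and Smurf2, which act on SMAD proteins of the TGF-beta and BMP pathways, averaged 39.0 and 51.9 CPM in KO, and 36.7 and 52.2 CPM in WT.

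HERC-family ligases carry RCC1-like domains beside their HECT domain. Herc1, Herc3, Herc4 and Herc6 had log2 fold changes between −0.14 and −0.03 (median −0.09), and Herc2, from the list of further HECT ligases, had 231.4 ± 3.498 CPM in KO and 232.1 ± 2.35 CPM in WT. None passed the threshold, and the sign of Herc6 depended on the libraries used. Herc1, a giant member, averaged 171.6 CPM in KO and 178.1 CPM in WT. Herc3 averaged 41.1 CPM in KO and 45.2 CPM in WT, and Herc4 56.5 CPM in KO and 62.2 CPM in WT. Herc6 is described with the interferon-linked genes.

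Among the remaining HECT ligases, Hectd2 had the smallest p after Ube3a. It was near the detection filter, with 46, 38 and 69 reads in KO against 93, 66 and 91 in WT, or 1.84, 1.22 and 2.13 CPM in KO and 2.98, 2.33 and 2.52 CPM in WT. The KO libraries lay below the WT libraries, though KO replicate 3 and WT replicate 2 were close. Its log2 fold change was −0.41 (95% interval −0.78 to −0.05; limma adjusted p = 0.866), which did not pass. Hectd2 shares 1834 exon bases with its antisense gene Hectd2os, which had more reads than Hectd2 itself in 5 of the 6 libraries: 104, 94 and 100 reads in KO and 84, 130 and 98 reads in WT. No source used here gives the strand setting of the counting, so reads of this pair cannot be told apart.

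Hace1, a ligase of active RAC1, had 19.7, 18.2 and 18.2 CPM in KO and 22.8, 19.5 and 21.1 CPM in WT, overlapping narrowly (log2 fold change −0.17 ± 0.085, SE; limma adjusted p = 0.866). G2e3, a ligase gene named for its expression in G2 and M phase, had 58.3, 51.8 and 71.9 CPM in KO and 81.2, 61.4 and 71.5 CPM in WT (log2 fold change −0.23 ± 0.138, SE). Of the 4 stem and progenitor markers, Cd34 made up most of the sum, with 25.8, 24.5 and 34.0 CPM in KO and 77.3, 28.9 and 74.1 CPM in WT. Meis1 had 4.88 to 6.57 CPM over the 6 libraries, and Kit and Gata2 were under 0.4 CPM in each. WT replicates 1 and 3 were high in both Cd34 and G2e3, whereas KO replicate 3 matched WT replicate 3 in G2e3 without the high Cd34. The part of such cells in the G2e3 values was not tested. Hectd3, which was positive, had 69.3, 76.4 and 69.9 CPM in KO and 62.3, 69.5 and 66.5 CPM in WT (log2 fold change 0.12 ± 0.070, SE). Arel1, a ligase that opposes apoptosis, averaged 74.7 CPM in KO and 70.4 CPM in WT, and Hectd4 87.1 CPM in KO and 86.2 CPM in WT.

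The most abundant ligases by reads, Trip12 and Huwe1, together took 36.7% ± 0.124 of the HECT ligase reads in KO and 35.8% ± 0.941 in WT. Trip12 averaged 448.4 ± 18.5 CPM in KO and 465.2 ± 14.5 CPM in WT (log2 fold change −0.05 ± 0.064, SE). Huwe1, on the X chromosome, had 424.0, 436.1 and 444.8 CPM in KO and 463.4, 429.9 and 448.4 CPM in WT (log2 fold change −0.04 ± 0.062, SE). Of the libraries nearly without Xist, KO replicate 2 lay between the other KO libraries in Huwe1 and WT replicate 2 was the lowest in WT. Ube2a, the X-linked RAD6 homologue, had 43.2, 38.6 and 43.8 CPM in KO and 45.5, 47.0 and 42.8 CPM in WT (log2 fold change −0.11 ± 0.075, SE), with KO replicate 2 lowest and WT replicate 2 highest of the 6.

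Ube2l3, the E2 classically paired with UBE3A, had 179.5, 169.1 and 178.2 CPM in KO and 162.8, 173.1 and 165.9 CPM in WT, which overlapped, for a log2 fold change of 0.07 (95% interval −0.06 to 0.20; limma adjusted p = 0.866). It shares 1670 exon bases with Ydjc on the opposite strand, which had 185, 351 and 240 reads in KO and 299, 220 and 402 reads in WT, far fewer than the 4488 to 5984 reads per library on Ube2l3.

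The UBE2D enzymes, which start ubiquitin chains with many ligases, summed to 308.0, 217.7 and 312.1 CPM in KO and to 324.6, 325.4 and 304.1 CPM in WT, with KO replicate 2 set apart. That gap came mostly from Ube2d3, which had 211.6, 133.0 and 216.7 CPM in KO and 230.8, 231.6 and 210.3 CPM in WT. The log2 fold change was −0.29 ± 0.173 (SE; limma adjusted p = 0.866), and −0.06 without KO replicate 2. Ube2d1 averaged 32.3 CPM in KO and 32.2 CPM in WT, and Ube2d2a 59.9 CPM in KO and 61.6 CPM in WT. Members of this family are close paralogues, and the treatment of reads that map to several places is not stated in the sources used here, so their single values are uncertain.

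Of the UBE2E enzymes, all 3 were negative. Ube2e3 had 49.8, 46.7 and 51.7 CPM in KO and 53.7, 53.9 and 53.2 CPM in WT. The genotypes did not overlap, but the difference was small (log2 fold change −0.12; 95% interval −0.26 to 0.03; limma adjusted p = 0.866). Ube2e1 averaged 40.0 CPM in KO and 43.0 CPM in WT, and Ube2e2 12.9 CPM in KO and 14.2 CPM in WT. Without KO replicate 2 the log2 fold changes were −0.0093 for Ube2e1, −0.034 for Ube2e2 and −0.078 for Ube2e3. In the 4 libraries with Xist they were 0.021, 0.031 and −0.074 in that order, so the shared sign depended on the libraries used. Ube2n, which builds non-degradative chains in Toll-like receptor and NF-kappaB signalling, had 29.5, 28.0 and 32.0 CPM in KO and 32.2, 33.7 and 34.6 CPM in WT. Its KO values all lay below its WT values, by a narrow margin (log2 fold change −0.16; 95% interval −0.34 to 0.0086; limma adjusted p = 0.866). Together with Ube3a, Hectd2 and Ube2e3 this made 4 of 46 genes with KO below WT throughout, where 5.55% of all genes tested had that pattern. Ube2v2, the variant that partners UBE2N in DNA damage tolerance, averaged 8.64 CPM in KO and 9.79 CPM in WT.

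The enzymes that carry NEDD8 overlapped between genotypes. Ube2m had 125.3, 127.1 and 110.7 CPM in KO and 107.8, 115.8 and 116.7 CPM in WT (log2 fold change 0.09 ± 0.073, SE), and Ube2f averaged 50.6 CPM in KO and 49.7 CPM in WT. Of the E2 enzymes of protein quality control at the endoplasmic reticulum, Ube2j1 averaged 153.9 ± 9.92 CPM in KO and 164.3 ± 7.78 CPM in WT (log2 fold change −0.09 ± 0.070, SE), Ube2j2 41.5 CPM in KO and 40.5 CPM in WT, Ube2g1 38.5 CPM in KO and 42.5 CPM in WT, and Ube2g2 60.6 CPM in KO and 57.8 CPM in WT. Ube2r2, a partner of cullin ligases, had 83.0, 83.2 and 85.2 CPM in KO and 73.5, 83.7 and 77.5 CPM in WT, overlapping in WT replicate 2 (log2 fold change 0.10 ± 0.065, SE).

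The other E2 enzymes did not pass the test. Ube2b averaged 83.7 ± 5.29 CPM in KO and 85.2 ± 9.73 CPM in WT (log2 fold change −0.02 ± 0.092, SE), and Ube2z 150.2 ± 6.39 CPM in KO and 148.1 ± 3.69 CPM in WT (0.02 ± 0.059, SE). Ube2k, which builds chains that lead to the proteasome, averaged 69.0 CPM in KO and 70.2 CPM in WT. Ube2w, which modifies protein N-termini, averaged 44.9 CPM in KO and 48.3 CPM in WT. Ube2h, an E2 of the CTLH ligase complex, averaged 30.8 CPM in KO and 30.0 CPM in WT. Ube2o, an E2 with ligase activity of its own that remodels the proteome of reticulocytes, averaged 26.4 CPM in KO and 28.2 CPM in WT. Ube2q1 averaged 121.1 CPM in KO and 118.2 CPM in WT.

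Ube2l6 and Herc6 were spread widely within each genotype. UBE2L6 (UbcH8) is the E2 for ISG15, an interferon-induced ubiquitin-like protein, and HERC6 is its main ligase in mice. Ube2l6 (chromosome 2, 84798828 to 84810335, plus strand) had 103.1, 49.4 and 67.5 CPM in KO and 46.0, 91.0 and 55.7 CPM in WT. Herc6 (chromosome 6, 57581000 to 57664632, plus strand) had 32.0, 13.01 and 21.8 CPM in KO and 18.6, 30.6 and 17.03 CPM in WT. In both genes KO replicate 1 was highest, followed by WT replicate 2 and then KO replicate 3. The log2 fold change was 0.18 for Ube2l6 (95% interval −0.51 to 0.88; limma adjusted p = 0.915) and −0.03 for Herc6 (95% interval −0.76 to 0.70; limma adjusted p = 0.984).

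A list of 24 interferon-stimulated genes, which holds neither Ube2l6 nor Herc6, moved through the libraries in a like order. Its summed level was 3217, 1063 and 1848 CPM in KO and 1093, 2802 and 1321 CPM in WT. Isg15 itself had 32.9, 6.78 and 14.5 CPM in KO and 6.75, 25.8 and 10.7 CPM in WT, and Uba7, the E1 for ISG15, 71.1, 48.9 and 54.2 CPM in KO and 38.2, 67.1 and 48.2 CPM in WT. The highest library exceeded the lowest by 2.24-fold for Ube2l6, 2.46-fold for Herc6, 1.86-fold for Uba7 and 4.87-fold for Isg15. Of the 24 listed genes 22 had a positive and 2 a negative log2 fold change (median 0.25), and none was called by limma, with 0 at an unadjusted p under 0.05. In the 4 libraries with Xist, which leave out WT replicate 2 and KO replicate 2, the log2 fold changes were 0.71 for Ube2l6 (limma adjusted p = 0.142) and 0.54 for Herc6 (limma adjusted p = 0.201). Without KO replicate 1 they were −0.09 for Ube2l6 (limma adjusted p = 0.959) and −0.32 for Herc6 (limma adjusted p = 0.890). With 1 library left out in turn they ranged over −0.09 to 0.46 for Ube2l6 and −0.32 to 0.29 for Herc6, so neither gene kept a direction. The part of interferon signalling in these values was not tested.

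**Figure D4:**
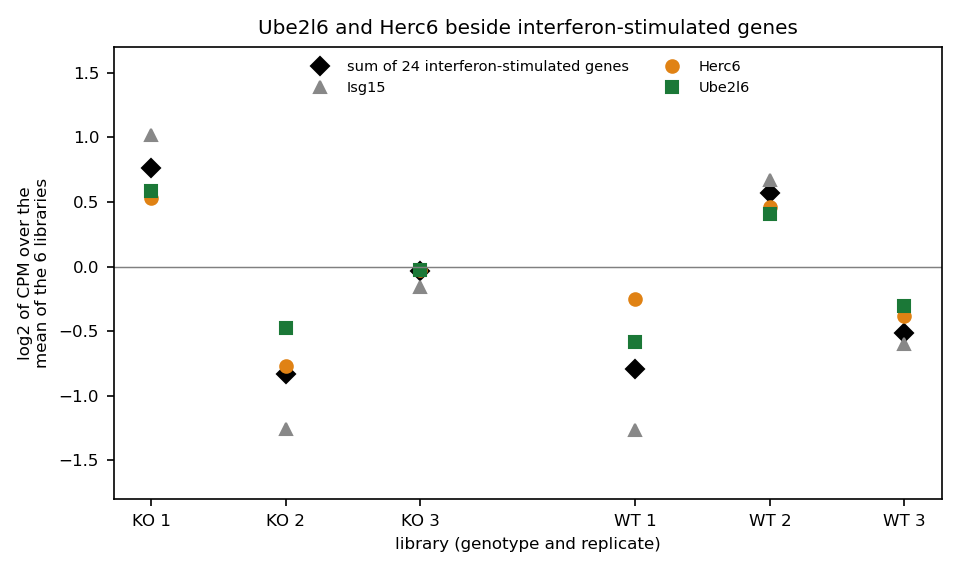
Log2 of the CPM over the mean of the 6 libraries for Ube2l6, Herc6, Isg15 and the sum of 24 interferon-stimulated genes, with KO libraries on the left and WT libraries on the right. All 4 are above their mean in KO replicate 1 and WT replicate 2 and below it in KO replicate 2, WT replicate 1 and WT replicate 3; in KO replicate 3 they are slightly below it, at −0.16 to −0.02.

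Because Ube2l6 and Herc6 moved together, the 250 bases before their RefSeq starts (GRCm38.p6) were searched on both strands for the interferon-stimulated response element, searched as TTTC, any 2 bases and TTTC again, and are shown with those of Isg15, in which capitals mark 3 overlapping matches on the reverse strand. The Ube2l6 window is chr2:84798578-84798827 (plus strand), the Herc6 window chr6:57580742-57580991 (plus strand) and the Isg15 window chr4:156200819-156201068 (minus strand).
Ube2l6: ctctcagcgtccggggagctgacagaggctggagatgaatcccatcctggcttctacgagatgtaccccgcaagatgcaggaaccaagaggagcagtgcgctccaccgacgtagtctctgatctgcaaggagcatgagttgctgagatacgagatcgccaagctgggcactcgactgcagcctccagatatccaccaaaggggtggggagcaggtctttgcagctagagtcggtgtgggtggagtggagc
Herc6: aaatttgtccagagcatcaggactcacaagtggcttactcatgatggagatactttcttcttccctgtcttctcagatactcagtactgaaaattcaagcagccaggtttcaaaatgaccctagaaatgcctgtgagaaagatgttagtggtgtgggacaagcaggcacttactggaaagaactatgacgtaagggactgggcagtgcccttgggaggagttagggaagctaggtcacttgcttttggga
Isg15: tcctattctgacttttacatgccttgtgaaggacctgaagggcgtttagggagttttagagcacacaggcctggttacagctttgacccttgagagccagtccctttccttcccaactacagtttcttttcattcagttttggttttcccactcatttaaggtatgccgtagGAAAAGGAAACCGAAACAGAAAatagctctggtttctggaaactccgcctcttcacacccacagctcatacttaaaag

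No match to this element was found in the windows of Ube2l6 and Herc6, nor in any of the 49 windows of the 38 HECT ligases and E2 enzymes with an entry. It was present in 2.98% of all 32851 windows and in 8 of the 19 windows of the interferon-stimulated genes. The absence says only that these letters are not in these stretches. Another motif of interferon signalling, the gamma-activated site TTCNNNGAA, was present in 5 of the 49 windows, those of Hace1, Huwe1, Nedd4, Ube2d3 and Ube2z, and in 7.02% of all windows.

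Further genes of the ubiquitin cascade, taken from the lists below, gave no call either. Of all genes tested, 0.0165% were called. Of 5 further HECT ligases 4 were tested (1 positive, 3 negative) and none passed, with Hecw2 at 0.949 in KO and 0.780 CPM in WT. Of 14 further E2 enzymes 10 were tested (4 positive, 6 negative) and none passed, with Ube2t, an E2 of the Fanconi anaemia pathway, at 13.1 ± 0.664 in KO and 14.4 ± 0.353 CPM in WT, and Ube2s, an E2 of the anaphase-promoting complex, at 51.4 ± 3.79 in KO and 47.0 ± 4.97 CPM in WT. All 9 E1 genes were tested (5 positive, 4 negative) and none passed, with Nae1 of the NEDD8 pathway at 40.8 ± 5.28 in KO and 44.8 ± 0.899 CPM in WT and Uba6 at 92.3 ± 13.98 in KO and 100.3 ± 4.51 CPM in WT.

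The 4 ubiquitin genes (3 positive, 1 negative) did not pass, with Rps27a at 18.9 ± 8.44 in KO and 14.3 ± 0.566 CPM in WT. Of 13 RBR ligases tested, the other class that takes ubiquitin from UBE2L3, 6 were positive and 7 negative and none passed, with Rnf144b at 12.8 ± 1.695 in KO and 15.5 ± 2.27 CPM in WT and Arih1 at 179.2 ± 18.3 in KO and 195.1 ± 5.08 CPM in WT. Of 8 adaptors of NEDD4-family ligases (4 positive, 4 negative) none passed, with Arrdc3 at 32.0 ± 3.78 in KO and 35.8 ± 4.31 CPM in WT and Txnip at 579.1 ± 88.5 in KO and 515.8 ± 34.2 CPM in WT. Over these lists, no gene had an unadjusted limma p under 0.05, against 4.13% of all genes tested. In the authors' deposited table, 1 of the 47 ligases and E2 enzymes with a readable p-value, Hectd2, had an unadjusted p under 0.05, against 4.31% of all genes with one. The gene without a readable p-value was Ube3a. Readable p-values matched those of limma-voom on the recovered reads of all genes, within 4.1e-13 relative, so they are not a separate test.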

How the data were processed

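The authors deposited 1 table with a value per gene and library and an unadjusted p-value per gene. Per the file headers the values are CPM, and the range shows log2 CPM. The submitters' processing notes name HISAT2 2.1.0, HTSeq 0.11.0, Trimmomatic 0.36, Cufflinks and FastQC 0.11.15. The sources used here do not name a genome build, annotation or strand setting. Decimal marks were missing from the deposited values. They were restored with the step that 1 read makes, which returned whole reads, within 1e-06 relative, for 100% of values in each library. The same steps were tested on simulated data.

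CPM use the authors' scaled library sizes. The 12118 genes that reached 1 CPM in 3 or more libraries were fitted as log2(CPM + 1) with limma 3.58.1 in R 4.3.3 (intensity trend, genotype only, two-sided, Benjamini-Hochberg, threshold 0.05). Lengths and positions are from GENCODE M21, matched by identifier for 16820 genes and all 48 of the group, and RefSeq gave upstream windows. Fold changes are stated for Ube3a, the 6 smallest p-values in each direction, Ube2l3, Ube2l6, Herc6, X-linked genes and the 4 highest levels per kb in each class; Ube2d3 was added after its values were seen. Genes and lists were chosen with earlier results of these data known. Whether libraries of equal replicate number were paired is not settled by the correlations of their deviations, which were −0.216, −0.134 and 0.140. Between KO and WT libraries of unequal number the correlations ranged from −0.394 to 0.398, the highest being that of KO replicate 1 with WT replicate 2. Xist was nearly absent from replicate 2 of each genotype and present in the other libraries. Of the further lists of the ubiquitin cascade, the genes with the smallest p-values are named, and some are not reported here.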

Additional observations from a re-analysis of the deposited data

How the results depend on the processing

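In 16 alternative fits Ube3a stayed past the threshold (log2 fold change −1.55 to −1.38) and none of the other 45 ligases and E2 enzymes passed it. Among those 45, 4.31% of the values had a sign other than in the main analysis, none of them in a called gene. With the replicate number as a replicate block Ube3a stayed at −1.47 (limma adjusted p = 0.0318). The number of called genes over the whole table, 2 in the main analysis, was 1 with a pseudocount of 5 CPM, with no filter on low values, with limma-voom and without the intensity trend, and 24 in the 4 libraries with Xist present; with 1 library left out it lay between 1 and 8, the 8 being without WT replicate 2. The cause was not tested. The Ube3a share of HECT ligase reads was 2.87% in KO and 7.55% in WT, 1.49% in KO and 4.07% in WT per kb of merged exon, and 2.17% in KO and 5.80% in WT per kb of the longest transcript; these differ by construction. With 1 library left out it was 2.76% to 3.01% in KO and 7.33% to 7.78% in WT. The edgeR and DESeq2 alternatives were not run; the recovered reads were tested with limma-voom instead. With 3 libraries per genotype, changes within the intervals given cannot be resolved.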

Other observations

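KO replicate 2 was the lowest of the 6 libraries for 13 of the 25 E2 enzymes tested and for 7 of the 20 HECT ligases other than Ube3a, whereas it was lowest for 26.7% of all genes tested. WT replicate 1 was the highest for 10 of those 20 ligases, against 23.5% of all genes tested. The E2 genes with a clear gap included Ube2d3, Ube2e1, at 44.6, 34.6 and 40.8 CPM in KO and 44.3, 44.8 and 39.9 CPM in WT, and Ube2g1, at 41.1, 33.3 and 41.3 CPM in KO and 43.3, 44.4 and 39.7 CPM in WT. Both were picked after their values were seen.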
